A study of Mus musculus with 18 samples.

Results

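Stress erythropoiesis is the fast production of red cells after blood loss, infection or transplantation, and in the mouse its main site is the spleen. Burst-forming erythroid progenitors (BFU-E) are early cells committed to the red lineage, named for the large colonies they give in culture. They depend on KIT and erythropoietin signalling, and transcription factors such as GATA1, TAL1 and KLF1 direct their maturation. RNA of BFU-E sorted from spleens under stress was set against RNA of BFU-E sorted from resting bone marrow (BM), over every gene of the deposited count table of these populations. The 6 libraries are part of 18 in the series, of which 12 are RNA libraries, and the table holds 10702 genes.

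The stress spleen BFU-E came from mice at day 8 after lethal irradiation, followed by a transplant of bone marrow cells that had not been fractionated (3 libraries). The BM BFU-E came from bone marrow at steady state, with neither irradiation nor transplant (3 libraries). The labels give the strain background B6SJL for both groups and name no mutation, age or sex, and they do not say whether the cells taken from the spleen descended from the transplant or from the host. Cells of both groups were depleted of cells bearing lineage antigens of lymphocytes (CD4, CD8, B220), granulocytes (Gr-1) and red cells (Ter-119), and then sorted by flow cytometry with antibodies that include CD71, CD9, CD24a, CD150, CD133, KIT and Sca1. Both groups are titled as negative for Sca1. In steady-state sorts the biotinylated antibodies were detected with another fluorophore than in spleen sorts. Tissue, irradiation with transplant, and staining thus change together and cannot be told apart. Libraries were made with a total RNA kit for very small inputs. Nothing in the labels says that the 3 libraries of a group came from separate mice, so p-values measure the spread between these libraries, which may be technical.

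The gene ranked first in the comparison was Snord15b, and its near relative Snord15a was also among the genes called. Each encodes a box C/D small nucleolar RNA (snoRNA), a class of short RNAs that guide methylation or processing of ribosomal RNA and that are cut from introns of longer genes. They are shown to make clear how short these targets are and what they share. Sequences are from the RefSeq assembly GRCm38.p6 (the mm10 build) at the positions in the deposited table, minus strand, with the C box (TGATGA) and the D box (CTGA) in capitals, searched on the RNA strand within 20 bases of each end. Snord15b lies at chr7:99479563-99479707 and Snord15a at chr7:99482785-99482932. Both lie inside Rps3 (chr7:99477897-99483709, minus strand) and overlap no exon of it in RefSeq.

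Snord15b: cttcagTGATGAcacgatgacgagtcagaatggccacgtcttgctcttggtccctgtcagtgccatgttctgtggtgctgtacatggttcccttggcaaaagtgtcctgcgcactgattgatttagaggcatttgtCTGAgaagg
Snord15a: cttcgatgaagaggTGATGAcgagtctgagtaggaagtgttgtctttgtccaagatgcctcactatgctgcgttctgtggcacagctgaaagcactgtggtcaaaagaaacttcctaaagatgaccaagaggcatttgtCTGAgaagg

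Their last 21 bases were identical, so reads from that end could belong to either gene. Of 15 genes named as C/D box snoRNAs in the table, 9 had both boxes by this search, against 0 of 13 other snoRNA genes.

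The stress spleen libraries held 12926718, 10555143 and 12188446 counts, and the BM libraries 9463498, 8385818 and 6758871. Genes with a count of 0 made up 0.420% to 0.738% of the table in the stress spleen libraries, but 5.81% in BM 1, 1.53% in BM 2 and 15.3% in BM 3. The stress spleen libraries correlated with each other at 0.945 to 0.953 and the BM libraries at 0.604 to 0.732 (Pearson's r of log2 CPM, in which counts are divided by library size, across genes, which are not independent replicates). Between stress spleen and BM libraries r was 0.652 to 0.845, and each BM library was nearer to every stress spleen library than to the other BM libraries: BM 1 at 0.744 to 0.765, BM 2 at 0.814 to 0.845 and BM 3 at 0.652 to 0.668, the last against 0.604 and 0.651 to the other BM libraries. The median standard deviation (SD) of a gene within its group was 0.22 in stress spleen and 0.79 in BM on the log2 CPM scale, and it was larger in BM for 9759 genes (91.2%). In the third of genes with the lowest level these medians were 0.43 and 2.74. In the third with the highest they were 0.12 and 0.41. The BM libraries thus varied more among themselves than the stress spleen libraries at every level.

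Of the 10702 genes, 12 (0.112%) were called by edgeR's quasi-likelihood test at an adjusted p under 0.05. The cathepsin gene Ctse was higher in stress spleen BFU-E (1 gene, 0.00934%), and 11 genes (0.103%) were lower. Before adjustment, 410 genes (3.83%) had a p under 0.05 and a higher level in stress spleen BFU-E, and 643 genes (6.01%) a lower one. In 1369 genes (12.8%) every stress spleen library lay above every BM library, and in 972 genes (9.08%) every one lay below. The median log2 fold change over all genes was 0.01, with quartiles at -0.46 and 0.46. All 12 genes had no overlap between groups. Which library was left out moved the count: 0 genes were called without stress spleen library 2 and 0 without stress spleen library 3. Only 481 and 489 of the 10702 genes then reached an unadjusted p below 0.05, against 1053 with all libraries. Each is less than a share of 0.05, which is what this cut would pass if no gene differed. The count of calls was 7 without stress spleen library 1, 4 without BM 1, 5 without BM 2 and 27 without BM 3, the library with the most zeros. Those 27 included all 12 genes, and Cybb, Tyrobp, F10, Rasa4 and Cd209a, lower, and Sipa1l1, higher, were among the 15 added. On the same counts DESeq2 called 685 genes with a local dispersion trend, 264 higher and 421 lower, and 579 with a mean trend; the 12 were among each.

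**Figure D1:**
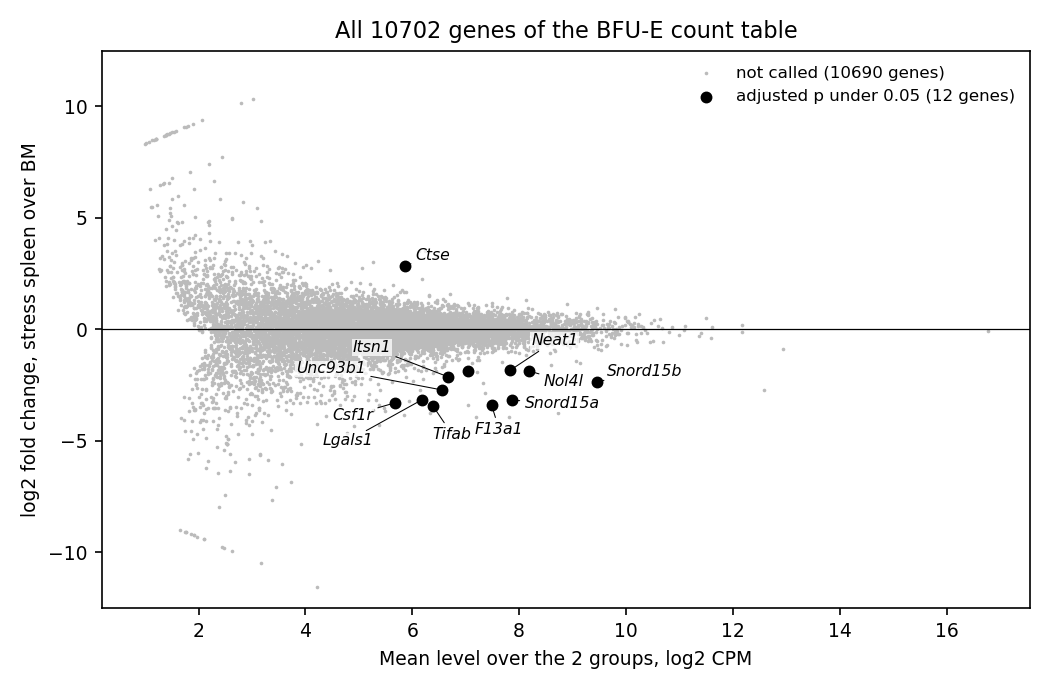
Each point is 1 of the 10702 genes of the count table, with its mean level over the groups on the x axis (log2 CPM) and its log2 fold change, stress spleen BFU-E over BM BFU-E, on the y axis. Black points are the 12 genes called by edgeR, of which Ctse alone lies above 0, with names for the 11 described; the streaks at the top and bottom are genes with 0 counts in a whole group, whose fitted fold change depends on the prior count.

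Ctse, the gene of cathepsin E, a protease of endosomes (chr1:131638314-131675507), was the gene that rose. It measured 99.9, 103 and 105 CPM in the stress spleen libraries, against 18.0, 10.9 and 14.0 CPM in the BM libraries. The stress spleen libraries were nearly alike and all lay far above BM 1, the highest BM library. Stress spleen minus BM, the log2 difference was 2.84 (SE 0.33, edgeR adjusted p = 0.0325), or 7.15-fold. The call was lost without any 1 library other than BM 3 (edgeR adjusted p = 0.0667 to 0.290), with the replicate number as a block (0.149) and by voom with limma (0.144 and 0.101). Of the genes that fell, Csf1r, Lgals1, Unc93b1, Itsn1, Nol4l, Neat1 and Snord15a also lost their calls without any 1 library other than BM 3. Among the 26 tested genes of lysosomes and cathepsins Ctse stood against the list, of which 18 lay below 0. An unadjusted p under 0.05 was found for 7 of these, where 6.01% of all genes were lower at that p. The list's median was -0.39.

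The genes that fell include Csf1r and F13a1, listed with monocyte and macrophage genes, Unc93b1 and Tifab, listed with innate signalling, and Lgals1. Csf1r encodes the receptor that macrophages need for growth (chr18:61105572-61131139). It measured 9.62, 9.20 and 9.21 CPM in stress spleen BFU-E, against 77.9, 135 and 64.6 CPM in BM BFU-E (log2 difference -3.31, SE 0.41, edgeR adjusted p = 0.0373). For F13a1, the catalytic subunit of clotting factor XIII (chr13:36867178-37049213), the stress spleen libraries had 37.6, 24.6 and 30.7 CPM, against 213, 380 and 389 CPM in the BM libraries (-3.40, SE 0.30, edgeR adjusted p = 0.0205). The BM library lowest in F13a1 was BM 1, whereas for Csf1r it was BM 3, and in neither gene did the groups come near each other. Lgals1, the glycan-binding protein galectin 1 (chr15:78926725-78930465), measured 19.1, 10.3 and 14.7 CPM in stress spleen, against 104, 106 and 183 CPM in BM (-3.15, SE 0.38, edgeR adjusted p = 0.0373).

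Unc93b1 and Tifab act in Toll-like receptor and TRAF6 signalling. Unc93b1 carries the nucleic acid-sensing receptors to endosomes (chr19:3935186-3949340), and it measured 29.3, 19.2 and 25.8 CPM in stress spleen BFU-E, against 174, 146 and 171 CPM in BM BFU-E (-2.72, SE 0.26, edgeR adjusted p = 0.0237). Tifab, a relative of the TRAF6 adaptor TIFA that dampens its signalling (chr13:56173703-56178885), measured 17.3, 13.5 and 11.8 CPM in stress spleen, against 85.1, 164 and 209 CPM in BM (-3.43, SE 0.40, edgeR adjusted p = 0.0325). Unc93b1 was even across the BM libraries and Tifab was not, and in both genes all stress spleen libraries were low. Of 21 tested genes of Toll-like receptor and innate signalling, these were the 2 called, where 0.103% of all genes were called lower. In this list 12 lay below 0 and 9 above, and the median was -0.55. The median was 0.03 when only genes averaging 200 or more counts were kept. Of the 21, 3 passed the filter of the deposited table through BM alone and 1 through stress spleen alone. The list was chosen with earlier results of these data known, so its 2 calls are a description and no test of the pathway.

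Among the other protein-coding genes that fell were Itsn1 and Nol4l. Itsn1, the endocytic scaffold intersectin 1 (chr16:91729371-91871655), measured 37.0, 34.7 and 41.8 CPM in stress spleen, against 184, 145 and 170 CPM in BM (-2.14, SE 0.22, edgeR adjusted p = 0.0237). Nol4l, named for its likeness to nucleolar protein 4 (chr2:153407461-153529971), measured 98.7, 131 and 146 CPM in stress spleen, against 426, 459 and 489 CPM in BM (-1.87, SE 0.19, edgeR adjusted p = 0.0237). Both varied little among the BM libraries, and they were 4.40-fold and 3.66-fold lower in stress spleen.

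**Figure D2:**
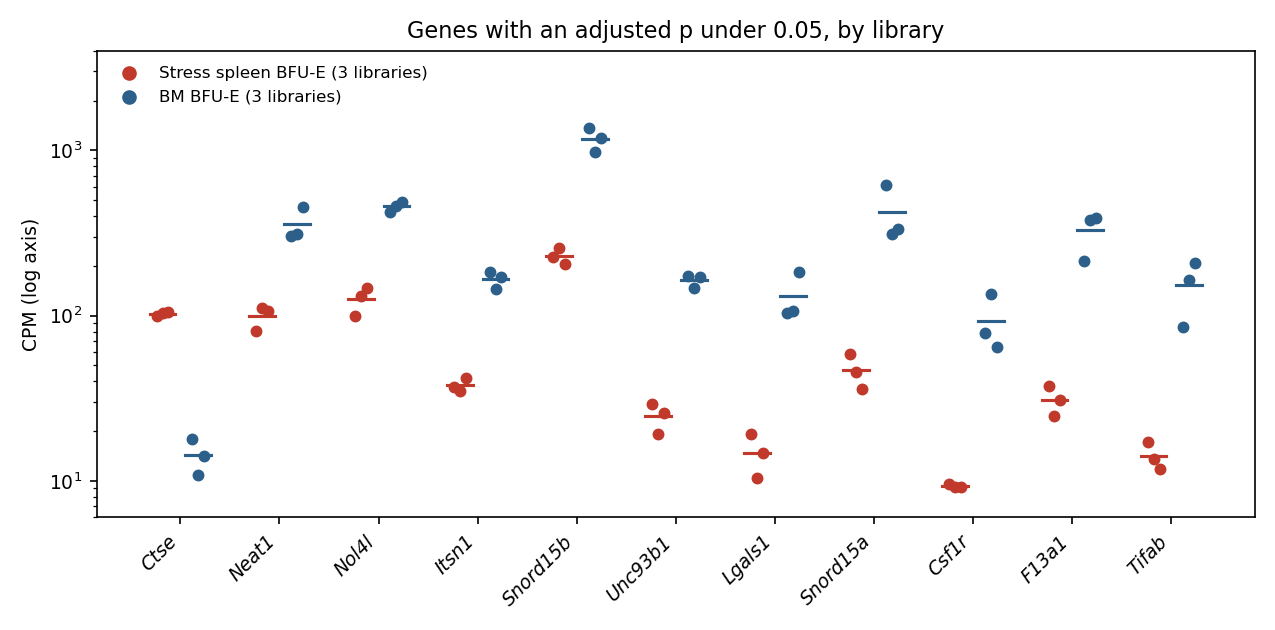
CPM (log axis) of the 11 called genes described in the text, in each library, stress spleen BFU-E in red and BM BFU-E in blue, with a bar at the mean of the 3 libraries. Ctse is the gene with stress spleen above BM, at 99.9 to 105 against 10.9 to 18.0 CPM, and in no gene do the groups overlap.

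The promoters of 4 of these genes are shown because the genes fell, to be read beside the lists of accessible regions. F13a1, Nol4l, Itsn1 and Tifab are given from RefSeq's promoter table (GRCm38.p6), 250 bases before to 50 after the start site that matches the deposited table. Capitals mark GATAA (the GATA core), GAGGAA (an ETS core) and CACCC (the core bound by Krüppel-like factors), searched on both strands. Of all 32851 promoters in that table, 25.4% hold GATAA, 28.3% GAGGAA and 57.5% CACCC. The windows are chr13:37049164-37049463 (F13a1, minus strand), chr2:153529922-153530221 (Nol4l, minus strand), chr16:91729121-91729420 (Itsn1, plus strand) and chr13:56178836-56179135 (Tifab, minus strand).

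F13a1: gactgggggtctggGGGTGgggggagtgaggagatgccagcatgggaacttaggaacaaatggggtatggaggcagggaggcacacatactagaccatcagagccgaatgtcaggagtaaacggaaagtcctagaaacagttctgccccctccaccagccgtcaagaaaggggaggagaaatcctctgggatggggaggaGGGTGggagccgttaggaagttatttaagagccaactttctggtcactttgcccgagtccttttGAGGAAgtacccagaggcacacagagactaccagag
Nol4l: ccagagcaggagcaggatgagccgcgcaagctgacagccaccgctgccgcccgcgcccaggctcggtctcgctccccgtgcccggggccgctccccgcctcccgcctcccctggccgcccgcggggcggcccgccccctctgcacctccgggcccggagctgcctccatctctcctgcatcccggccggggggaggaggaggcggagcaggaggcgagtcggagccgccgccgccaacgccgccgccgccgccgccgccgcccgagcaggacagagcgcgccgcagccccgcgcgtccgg
Itsn1: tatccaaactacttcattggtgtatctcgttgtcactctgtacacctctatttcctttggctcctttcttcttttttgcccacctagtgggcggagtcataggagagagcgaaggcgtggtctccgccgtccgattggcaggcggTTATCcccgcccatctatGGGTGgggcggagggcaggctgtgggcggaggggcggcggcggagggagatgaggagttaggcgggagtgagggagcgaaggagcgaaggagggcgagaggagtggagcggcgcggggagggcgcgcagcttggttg
Tifab: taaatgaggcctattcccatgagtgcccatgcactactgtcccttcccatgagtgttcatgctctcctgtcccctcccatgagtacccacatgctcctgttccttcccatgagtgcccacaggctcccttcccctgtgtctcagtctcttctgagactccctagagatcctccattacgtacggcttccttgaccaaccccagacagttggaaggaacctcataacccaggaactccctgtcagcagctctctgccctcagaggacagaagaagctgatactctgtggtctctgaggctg

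F13a1 had 1 match to GAGGAA and 2 to CACCC, Itsn1 had 1 to GATAA and 1 to CACCC, and the Nol4l and Tifab windows had 0 to each. No motif was held by all 4. Accessible regions overlapped the windows of Nol4l and Itsn1 in both populations (1 region in each list, which for Itsn1 the deposited annotation assigns to its neighbour Cryzl1), and 0 regions overlapped those of F13a1 and Tifab in either. These lists, from the assay for transposase-accessible chromatin (ATAC-seq), hold 61661 regions for stress spleen BFU-E and 35142 for BM BFU-E, 1 list per population, so no difference between them was tested. By that annotation Ctse had a region within 1000 bases of its start in both lists, with the authors' score of 1000 in stress spleen and 883 in BM. Of the 11 genes that fell, 5 had such a region in stress spleen and 4 in BM, against 83.4% and 79.1% of all genes tested. That count depends on the annotation. It leaves out Itsn1, whose region was assigned to Cryzl1, and both snoRNA genes, whose host Rps3 had 1 such region in each list. F13a1 had 7 regions assigned to it in stress spleen BFU-E, where its RNA was lower, and 0 in BM BFU-E, all farther than 1000 bases from its start. The list with more regions overall is also that of stress spleen, which moves with this count.

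Non-coding RNAs made up 3 of the 11 that fell. Snord15b measured 226, 257 and 204 CPM in stress spleen BFU-E, against 1371, 970 and 1188 CPM in BM BFU-E (-2.36, SE 0.18, edgeR adjusted p = 0.0109). Snord15a measured 58.3, 45.3 and 36.0 CPM in stress spleen, against 619, 312 and 332 CPM in BM (-3.18, SE 0.33, edgeR adjusted p = 0.0237). Neat1, the long RNA that builds paraspeckles (chr19:5842296-5845480), measured 81.1, 111 and 107 CPM in stress spleen, against 304, 312 and 454 CPM in BM (-1.84, SE 0.23, edgeR adjusted p = 0.0373). BM 1 was highest for both snoRNAs and BM 3 for Neat1. Malat1, another abundant nuclear RNA, measured 4507, 6014 and 5998 CPM in stress spleen and 12109, 7513 and 11258 CPM in BM, with no overlap and no call (edgeR adjusted p = 0.224).

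Rps3, the ribosomal protein gene whose introns hold both snoRNAs, lay the other way: 1132, 1183 and 1144 CPM in stress spleen BFU-E and 438, 695 and 715 CPM in BM BFU-E (log2 difference 0.90, SE 0.20, edgeR adjusted p = 0.215). The snoRNA genes were picked for description after their values were seen. Among the 28 counted, the 2 called included, 26 lay below 0, with a median log2 fold change of -1.50. In 14 of them every stress spleen library was lower, against 1 in which every one was higher, where 9.08% and 12.8% of all genes were. The 26 not called ran from -5.89 to 3.22. An unadjusted p under 0.05 was found for 6 of them, each lower, where 6.01% of all genes were lower at that p. Of the 28, 10 were in the table through BM alone and 2 through stress spleen alone. There were 18 that lay on the same strand inside a tested protein-coding gene, and in 14 of these the snoRNA lay below 0 while its host lay above 0. Of the 14 hosts, 11 lay above 0, with a median of 0.44, and 8 were higher without overlap, where 12.8% of all genes were. Most hosts encode ribosomal proteins. Snord17, for example, measured a mean of 20.8 CPM in stress spleen and 74.6 CPM in BM, while its host Snx5, a sorting nexin, measured 401, 452 and 393 CPM in stress spleen and 253, 258 and 253 CPM in BM. RNase P RNA (Rpph1), another short structured RNA, measured 1165, 1983 and 1693 CPM in stress spleen and 11039, 4717 and 16442 CPM in BM, the most in BM 3. The part that input, size selection and RNA recovery played in the level of these short RNAs was not tested. Without non-coding RNA genes in the table, 9 genes were called, the same 9 protein-coding genes.

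**Figure D3:**
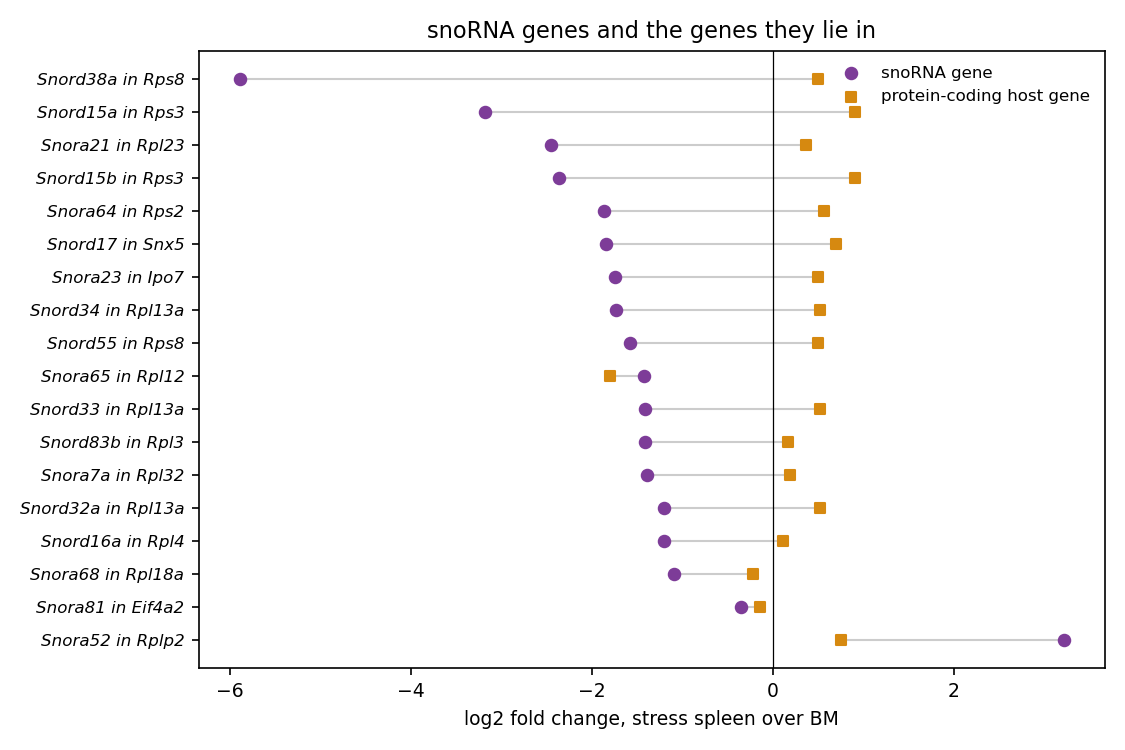
Log2 fold change, stress spleen BFU-E over BM BFU-E, of the 18 snoRNA genes inside tested protein-coding genes (circles) and of their hosts (squares), 1 pair per row. In 14 pairs the circle lies below 0 and the square above it; Snora52, in Rplp2, is the snoRNA above 0.

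Below the threshold, the 15 lower genes with the smallest p included several known from phagocytes. Cybb, the catalytic subunit of the phagocyte oxidase, measured 12.9, 4.70 and 4.81 CPM in stress spleen BFU-E, against 88.4, 129 and 105 CPM in BM BFU-E (log2 difference -3.84, edgeR adjusted p = 0.0546). Ahnak, a giant scaffold protein, measured 108, 34.0 and 32.5 CPM in stress spleen, against 656, 955 and 767 CPM in BM (edgeR adjusted p = 0.0546). In both genes stress spleen library 1 was the highest of its group and still lay far below BM. F10 (coagulation factor X), Fn1 (fibronectin), Klf4 (a monocyte transcription factor), Lrp1 (an endocytic receptor), Grn (progranulin), Ly6c2 (a monocyte antigen), Nfam1, Rassf4, Rasa4, Epsti1, Pik3r5 and Rpph1 had edgeR adjusted p-values of 0.0615 to 0.135. Ly6c2 is uncertain, because its close copy Ly6c1 was listed at 0 in all 6 libraries.

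Cd209a, a lectin of monocyte-derived dendritic cells, had 0 counts in every stress spleen library, against 46.7, 21.7 and 43.5 CPM in BM. Set against a floor of 3 counts over the stress spleen group, it was at least 454-fold lower there (edgeR adjusted p = 0.0615). Ly6d, found on plasmacytoid dendritic cell and B cell progenitors, also had 0 counts in stress spleen and 16.4, 7.64 and 13.2 CPM in BM, at least 152-fold lower by the same floor (edgeR adjusted p = 0.231). Siglech, a plasmacytoid dendritic cell receptor, measured 0.227, 0.00 and 0.160 CPM in stress spleen and 20.4, 6.38 and 8.98 CPM in BM. Cd209a, Ly6d and Siglech were in the table through BM alone, so their direction was fixed by the filter of the deposited table.

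The markers of monocytes and macrophages were low in stress spleen BFU-E as a list. The deposited table holds genes that averaged 50 counts in at least 1 group, so a gene that entered through BM alone had to lie lower, and counts over such lists are a description. Of these markers 16 of 24 were tested, 4 of them in the table through BM alone. All 16 lay below 0, with a median of -3.24, where the median of all genes was 0.01. An unadjusted p under 0.05 was found for 14, where 6.01% of all genes were lower at that p. Without overlap 12 were lower, where 9.08% of all genes were. Of the 16, 2 (Csf1r and F13a1) were called, where 0.103% of all genes were called lower. The summed level of the 16 ran from 157 to 310 CPM in the stress spleen libraries and from 1193 to 2061 CPM in the BM libraries. Leaving out any 1 library kept all 16 below 0, with medians between -3.56 and -3.08. Ccr2, the chemokine receptor of monocytes, measured 24.6, 7.33 and 8.41 CPM in stress spleen and 143, 85.5 and 171 CPM in BM. Adgre1 (F4/80), which defines mature macrophages, measured 0.00, 0.00 and 1.52 CPM in stress spleen and only 4.56, 14.5 and 8.26 CPM in BM, and Cd14 was at most 0.102 RPKM (reads scaled by gene length and library size) in stress spleen and 0.707 RPKM in BM. In bulk RNA, fewer cells of a type and less RNA per cell cannot be told apart, and the part of other cells in the sorted populations was not tested.

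Of 14 tested dendritic cell genes 7 were in the table through BM alone. All 14 lay below 0 with a median of -2.06 and 0 were called. Without overlap 9 were lower, where 9.08% of all genes were. Their sum was 207 to 484 CPM in stress spleen, highest in library 1, and 640 to 820 CPM in BM. Macrophages of erythroblastic islands left little signal: their 6 tested genes, 5 of them in the table through BM alone, summed to 20.8 to 32.8 CPM in stress spleen and 61.3 to 122 CPM in BM. Their median of -3.93 rested on BM 1, since without it the median was 1.71, and Marco, Vsig4 and Timd4 were listed at 0 in every library. Of 15 granulocyte genes 12 lay below 0 with a median of -0.50, which was -1.96 without stress spleen library 1 (14 below 0) and -0.20 without BM 2. Mpo, the neutrophil peroxidase, measured 499, 517 and 613 CPM in stress spleen and 521, 1056 and 650 CPM in BM. Of 11 tested mast cell and basophil genes 5 lay above 0 and 6 below, with a median of -0.23 that was 1.54 without BM 2. Without overlap 3 were higher and 1 lower, where 12.8% and 9.08% of all genes were. Of the 11, 5 were in the table through stress spleen alone and 2 through BM alone. Gzmb, a granule protease of cytotoxic cells that mast cells also make, measured 6.06, 6.95 and 16.2 CPM in stress spleen and 0.00, 0.250 and 0.00 CPM in BM (edgeR adjusted p = 0.329). The basophil proteases were high in a single BM library. Prss34 measured 0.00, 0.00 and 0.641 CPM in stress spleen and 0.00, 78.6 and 0.00 CPM in BM, and Mcpt8 0.00, 0.376 and 2.88 CPM in stress spleen and 1.19, 45.6 and 0.00 CPM in BM. For both, BM 2 was the high library.

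**Figure D4:**
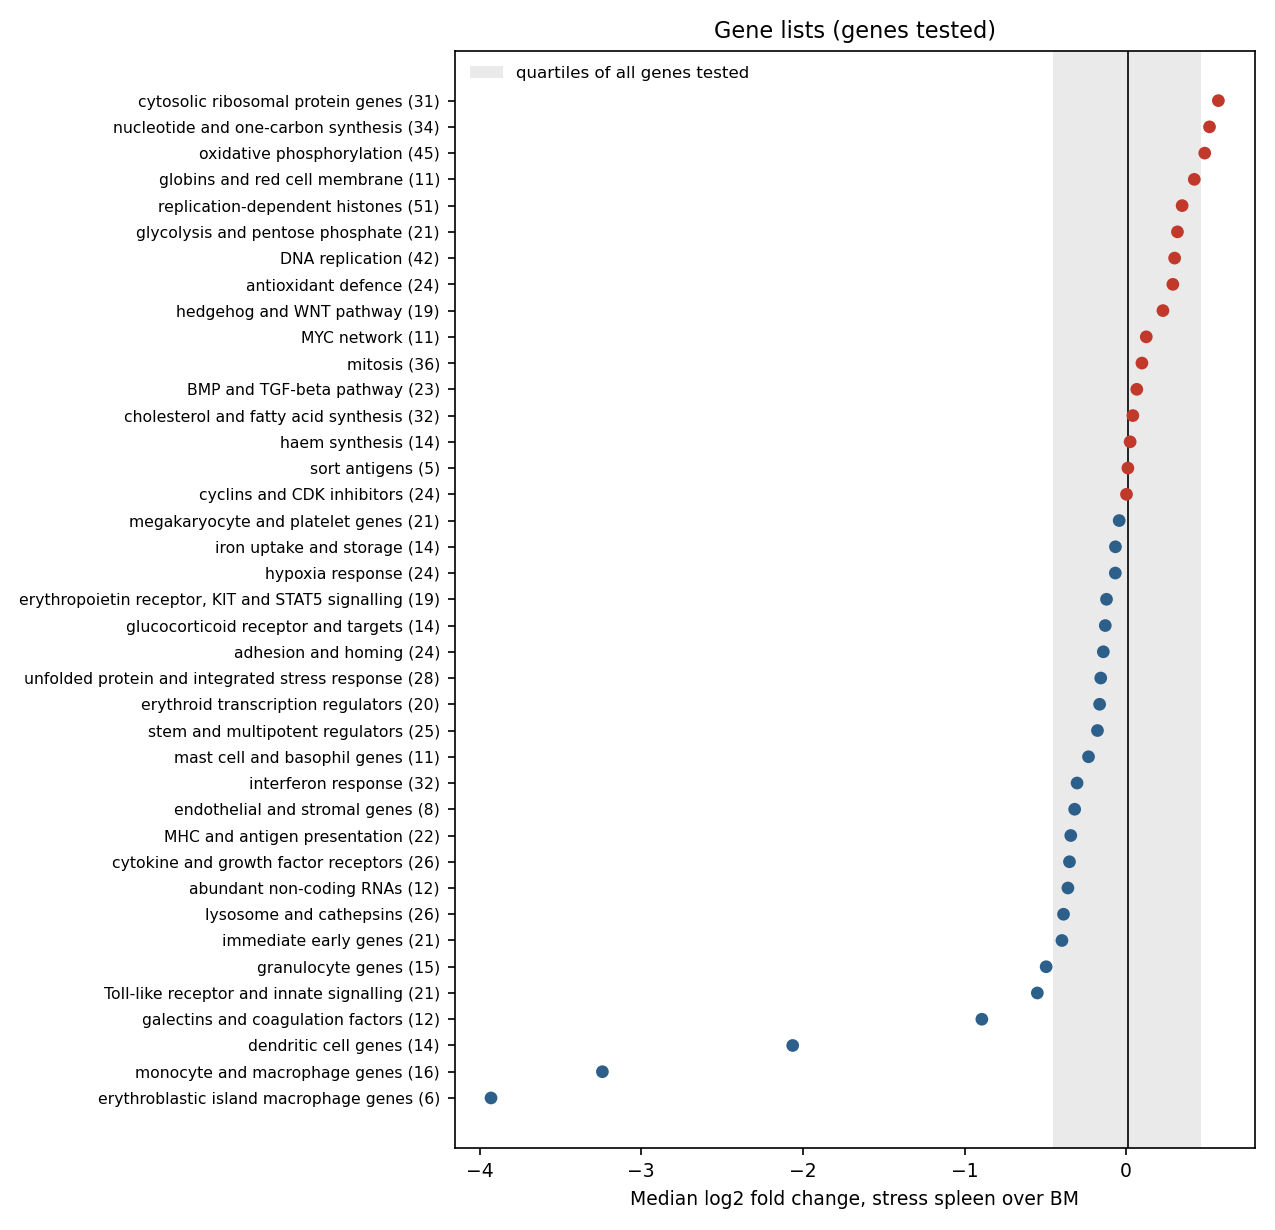
Median log2 fold change, stress spleen BFU-E over BM BFU-E, of each gene list with at least 5 tested genes (number tested in brackets). The line is the median of all genes, 0.01, and the grey band their quartiles, -0.46 and 0.46; monocyte, island macrophage and dendritic cell lists lie at -2.06 or lower, and ribosomal proteins, at 0.57, lie highest.

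Of the lists of red lineage genes, 0 members were called. Of 20 erythroid transcription regulators 7 lay above 0 and 13 below, with a median of -0.16. Gata1, the master regulator, measured 120, 103 and 123 CPM in stress spleen BFU-E and 148, 101 and 10.3 CPM in BM BFU-E, where BM 3 lay apart. Klf1 measured 28.4, 24.6 and 34.0 CPM in stress spleen and 15.8, 20.4 and 50.7 CPM in BM, where BM 3 was the highest. The GATA1 partners Tal1 and Lmo2 did not overlap: Tal1 measured 272, 255 and 263 CPM in stress spleen and 181, 188 and 135 CPM in BM, and Lmo2 615, 654 and 632 CPM in stress spleen and 372, 462 and 488 CPM in BM, with edgeR adjusted p-values of 0.302 and 0.309. Gata2, active in earlier progenitors, measured 501, 550 and 510 CPM in stress spleen and 727, 684 and 425 CPM in BM.

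Of 19 tested genes of erythropoietin receptor, KIT and STAT5 signalling 9 lay above 0 and 10 below, with a median of -0.12. Epor, the erythropoietin receptor, measured 20.8, 18.5 and 29.2 CPM in stress spleen and 2.60, 3.25 and 9.13 CPM in BM (log2 difference 2.19, SE 0.85, edgeR adjusted p = 0.457). Sh2b3 (LNK), an inhibitor of cytokine receptor signalling, measured 34.3, 46.6 and 37.4 CPM in stress spleen and 70.6, 125 and 87.3 CPM in BM (edgeR adjusted p = 0.268). For neither gene did the groups overlap, and neither passed the test. Of the 19, 3 were in the table through stress spleen alone, Epor among them, and this filter favours a higher level there. Haem synthesis genes were split evenly, 7 above and 7 below 0, with a median of 0.02. Among 14 genes of iron uptake and storage 6 lay above 0 and 8 below, with a median of -0.07. Without overlap 4 were higher, Tfrc and Ireb2, an iron-sensing RNA-binding protein, among them, and 1 was lower, where 12.8% and 9.08% of all genes were. Of 11 tested genes of globins and the red cell membrane 8 lay above 0, with a median of 0.42 that was 0.10 without BM 3; 3 had entered the table through stress spleen alone. In this list 3 were higher without overlap and 0 lower. Among these were the membrane skeleton genes Add2, with 5.23, 6.57 and 10.3 CPM in stress spleen and 0.00, 0.501 and 0.145 CPM in BM, and Ank1, with 9.39, 11.0 and 11.1 CPM in stress spleen and 1.95, 0.626 and 0.290 CPM in BM (edgeR adjusted p = 0.424 and 0.457). Globin genes were barely present: Hba-a1 and Hbb-bs reached at most 0.621 and 3.66 RPKM in stress spleen and 1.78 and 4.21 RPKM in BM.

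The antigens used in the sort check the labels. Kit, the stem cell factor receptor, measured 253, 335 and 335 CPM in stress spleen BFU-E and 272, 338 and 306 CPM in BM BFU-E. Cd9, a tetraspanin, measured 167, 143 and 144 CPM in stress spleen and 177, 121 and 189 CPM in BM, and for both genes the groups overlapped. Ly6a, which encodes Sca1, was at most 0.407 RPKM in stress spleen and 0.822 RPKM in BM. Prom1 (CD133) ran from 0.018 to 0.658 RPKM in stress spleen and was listed at 0 in every BM library. Tfrc (CD71), the transferrin receptor, measured 133, 114 and 107 CPM in stress spleen and 33.2, 59.2 and 31.3 CPM in BM (log2 difference 1.51, SE 0.32, edgeR adjusted p = 0.210). Slamf1 (CD150) measured 59.2, 40.8 and 43.9 CPM in stress spleen and 23.7, 25.7 and 16.5 CPM in BM, and Cd24a 43.5, 34.3 and 30.9 CPM in stress spleen and 126, 88.6 and 51.6 CPM in BM (edgeR adjusted p = 0.422 and 0.333). These 3 did not overlap, and since the sorts gated on their products, a difference in a gate moves with them; its part was not tested.

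Megakaryocyte and platelet genes were near balance, with 10 of 21 above 0 and a median of -0.04. Pf4 (platelet factor 4) measured 285, 311 and 232 CPM in stress spleen and 450, 630 and 544 CPM in BM (log2 difference -0.97, SE 0.18, edgeR adjusted p = 0.163). Every stress spleen library thus lay below every BM library. Ppbp, another platelet chemokine, lay the other way, with 10.8, 7.23 and 7.13 CPM in stress spleen and 0 counts in every BM library (edgeR adjusted p = 0.291). Of the 21, 2 were in the table through stress spleen alone, Ppbp among them, so the direction of Ppbp was fixed by the filter. In the list 2 genes were higher and 3 lower without overlap, shares near the 12.8% and 9.08% of all genes.

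Genes of ribosomes, mitochondria and nucleotide synthesis lay mostly above 0, with 0 called. C1qbp, a mitochondrial matrix protein, led the 15 higher genes below the threshold with 249, 228 and 250 CPM in stress spleen BFU-E and 132, 120 and 96.5 CPM in BM BFU-E (log2 difference 1.07, SE 0.18, edgeR adjusted p = 0.135). Atp5b, the beta subunit of ATP synthase, measured 966, 945 and 916 CPM in stress spleen and 582, 555 and 619 CPM in BM (edgeR adjusted p = 0.135). Heatr1, needed for transcription of ribosomal RNA, measured 260, 260 and 252 CPM in stress spleen and 142, 138 and 105 CPM in BM (edgeR adjusted p = 0.136). In all 3 the stress spleen libraries were close to each other and the groups stood clearly apart. Iars2 (mitochondrial isoleucyl-tRNA synthetase), Suclg1 (of the citric acid cycle), Cct8 (of the TRiC chaperonin), Rplp0 (of the ribosomal stalk), Slc16a1 (a lactate carrier), Usp14 (a deubiquitinase of the proteasome) and Usp24 had log2 fold changes of 0.67 to 1.20, with edgeR adjusted p-values of 0.176 to 0.210.

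Myh10, Aldh1a1 and Serpina3g were also among these 15 genes. Myh10, a non-muscle myosin heavy chain, measured 85.5, 63.9 and 88.0 CPM in stress spleen and 20.8, 23.3 and 16.5 CPM in BM (log2 difference 1.97, SE 0.34, edgeR adjusted p = 0.135). Aldh1a1, a retinaldehyde dehydrogenase, measured 119, 114 and 129 CPM in stress spleen and 13.7, 40.8 and 21.0 CPM in BM (2.26, SE 0.42, edgeR adjusted p = 0.156). Serpina3g, a protease inhibitor of a family with close copies whose reads may be shared, measured 365, 421 and 354 CPM in stress spleen and 224, 183 and 173 CPM in BM (edgeR adjusted p = 0.135). In each of them the stress spleen libraries lay above all BM libraries.

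By list, nucleotide and one-carbon synthesis had 27 of 34 genes above 0, a median of 0.52, 14 genes higher without overlap and 0 lower; 10 (and 0 lower) had an unadjusted p under 0.05. These shares lie above the 12.8% and 3.83% of all genes, and 0 were called. The sum of the list was 4659 to 4967 CPM in stress spleen and 3145 to 3663 CPM in BM. Cad, which starts pyrimidine synthesis, measured 503, 455 and 434 CPM in stress spleen and 283, 333 and 267 CPM in BM. Rrm1, the large subunit of ribonucleotide reductase, measured 434, 516 and 457 CPM in stress spleen and 345, 246 and 229 CPM in BM. Psat1, of serine synthesis, measured 165, 169 and 135 CPM in stress spleen and 64.8, 66.3 and 23.6 CPM in BM. These 3 had edgeR adjusted p-values of 0.233 to 0.255.

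Cytosolic ribosomal proteins had 27 of 31 tested genes above 0, a median of 0.57, 17 higher and 0 lower without overlap, and 0 called. Oxidative phosphorylation had 33 of 45 above 0, a median of 0.49, 15 higher and 0 lower without overlap, and 0 called. Over all genes, 12.8% were higher and 9.08% lower without overlap. The medians of both lists and of nucleotide and one-carbon synthesis stayed above 0 under every alternative tried on the counts, between 0.33 and 0.76. Those alternatives leave out a second set of BM columns described below. Against that set Atp5b, Psat1 and Rrm1 lay lower, Rplp0 overlapped, and Cad and Rps3 lay higher. Replication-dependent histones, whose messages lack a poly(A) tail, had 34 of 51 above 0 and a median of 0.35, and the linker histone Hist1h1a measured 439, 398 and 354 CPM in stress spleen and 149, 266 and 217 CPM in BM. DNA replication genes had a median of 0.30 and mitosis genes 0.10. Cdk6 and Cdk4, kinases of the G1 phase, were higher without overlap, Cdk6 with 1425, 1490 and 1551 CPM in stress spleen and 1146, 960 and 664 CPM in BM, and Cdk4 with 269, 278 and 206 CPM in stress spleen and 64.8, 156 and 111 CPM in BM. Neither was called (edgeR adjusted p = 0.316 and 0.291).

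Of 28 tested genes of the unfolded protein and integrated stress response 12 lay above 0 and 16 below, with a median of -0.16 and 0 called. Without overlap, 10 lay lower and 3 higher, where 9.08% of all genes lay lower and 12.8% higher. Hspa5 (BiP) measured 1009, 953 and 941 CPM in stress spleen BFU-E and 1191, 1572 and 1307 CPM in BM BFU-E. Hsp90b1 (GRP94) measured 1273, 1120 and 1163 CPM in stress spleen and 1920, 1452 and 1819 CPM in BM, and Pdia4, a disulphide isomerase, 251, 215 and 256 CPM in stress spleen and 440, 319 and 461 CPM in BM. The gap was modest for each and none passed the test (edgeR adjusted p = 0.254 to 0.316). Of 21 immediate early genes 7 lay above 0 and 14 below, with a median of -0.40 and 0 called; 6 lay lower and 2 higher without overlap. Fos measured 199, 261 and 222 CPM in stress spleen and 314, 364 and 484 CPM in BM, and Btg2, which slows cell division, 54.3, 57.3 and 56.1 CPM in stress spleen and 97.7, 106 and 188 CPM in BM (edgeR adjusted p = 0.291 and 0.258).

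Pathways often named in stress erythropoiesis showed no common direction. BMP and TGF-beta genes had 12 above and 11 below 0 with a median of 0.07, hypoxia genes a median of -0.07, and glucocorticoid receptor genes a median of -0.13 with 11 of 14 below 0. Hedgehog and WNT genes had 14 of 19 above 0 and a median of 0.23, and 2 were higher without overlap, a share near that of all genes. Tgfb1 measured 770, 788 and 814 CPM in stress spleen and 446, 703 and 253 CPM in BM (edgeR adjusted p = 0.499), with BM 3 the lowest. Interferon response genes had 19 of 32 below 0 and a median of -0.30, which was 0.06 without BM 3.

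Levels per gene length were available in the authors' RPKM tables for the other sorted populations of the stressed spleen, multipotent progenitors (MPP), which come before BFU-E, and erythroid colony-forming progenitors (CFU-E), which come after them. Ctse ran from 22.96 to 34.05 RPKM in MPP, 25.2 to 26.6 in stress spleen BFU-E and 62.5 to 64.1 in CFU-E, all above the 2.69 to 4.58 RPKM of BM BFU-E. Snord15b ran from 1685 to 3420 RPKM in MPP, 762 to 918 in stress spleen BFU-E and 523 to 770 in CFU-E, against 3502 to 5099 in BM BFU-E. For Ctse the stress spleen BFU-E thus overlapped the spleen MPP, whereas for Snord15b they lay below the MPP and overlapped the CFU-E. F13a1 was at most 1.21 RPKM in MPP and 0.079 in CFU-E, below the 3.29 to 5.47 RPKM of stress spleen BFU-E.

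A second set of BM BFU-E values exists in the RPKM table of 12 libraries, and it does not match the count table. Its stress spleen columns were proportional to the counts within 1% for 99.99% or more of genes with at least 50 counts, whereas its BM columns were so for 0.592% to 0.835%. Those BM columns correlated with each other at 0.887 to 0.911 and with the BM columns of the table of 6 libraries at 0.516 to 0.655. The stress spleen libraries are the same in both tables, so the values are set side by side with no test of likeness. Stress spleen BFU-E had 25.2 to 26.6 RPKM of Ctse, against 8.37 to 17.0 in the second BM columns. Csf1r had 1.23 to 1.40 RPKM in stress spleen, against 18.8 to 24.5 in those columns, and F13a1 had 3.29 to 5.47 in stress spleen, against 46.9 to 130 there. Unc93b1 had 3.67 to 6.73 RPKM in stress spleen, against 103 to 183 in the second BM columns. These genes, and also Lgals1 and Tifab, lay on the same side of both BM sets. Most genes lay lower against the second set, with a median log2 fold change of -0.95 over 10823 genes (limma on log2(RPKM + 1)). Nol4l, Itsn1 and Neat1 did not lie apart in the second: Nol4l had 8.64 to 12.2 RPKM in stress spleen and 9.65 to 16.1 in the second BM columns. Itsn1 had 3.36 to 4.21 RPKM in stress spleen and 0.619 to 6.64 in those columns, and Neat1 had 14.2 to 18.0 in stress spleen and 17.4 to 49.2 there.

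The short RNAs were close to absent from the second BM columns. Snord15a had 132 to 222 RPKM in stress spleen BFU-E and was listed at 0 in those columns, and Snord15b had 762 to 918 RPKM in stress spleen and at most 3.08 there. Rpph1 had 2010 to 3153 RPKM in stress spleen and 0.520 to 1.79 in the second BM columns. The histone Hist1h1a had 256 to 330 RPKM in stress spleen and 9.84 to 11.5 in those columns. Both snoRNA genes and Rpph1 therefore lie in opposite directions against the 2 sets of BM columns. Of the 34 genes described with values that were higher without overlap against the first set, 13 were also higher against the second, 12 were lower and 9 overlapped. The 12 were C1qbp, Atp5b, Epor, Lmo2, Psat1, Rrm1, Cdk4, Cct8, Suclg1, Usp14, Serpina3g and Ppbp. Of the genes lower without overlap against the first set, 27 were also lower against the second, 4 were higher and 9 overlapped. Calls by limma on log2(RPKM + 1) against the second set leaned the same way over all genes, 5493 down in stress spleen and 1393 up. Such a general shift favours lower over higher in both of these counts. No share of all genes without overlap against the second set is given beside them, so they are a description. C1qbp had 102 to 120 RPKM in stress spleen, against 203 to 285 in the second BM columns and 44.7 to 60.9 in the first. Atp5b had 261 to 289 RPKM in stress spleen, against 1078 to 1237 in the second and 155 to 178 in the first. Epor had 5.24 to 8.62 RPKM in stress spleen, against 30.3 to 58.0 in the second and 0.767 to 2.69 in the first. Lmo2 had 219.8 to 226 RPKM in stress spleen, against 608 to 691 in the second and 132 to 172 in the first. Gata1 had 28.0 to 35.6 RPKM in stress spleen, against 158 to 189 in the second and 2.91 to 41.9 in the first. Ly6a (Sca1) had at most 0.407 RPKM in stress spleen, against 5.19 to 6.04 in the second and at most 0.822 in the first. For both snoRNA genes, Rpph1, Malat1 and these 12 genes the direction thus depends on which BM columns are used, and Gata1 overlapped the first set. The part that library type, depth or cells played in the difference between the sets was not tested.

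**Figure D5:**
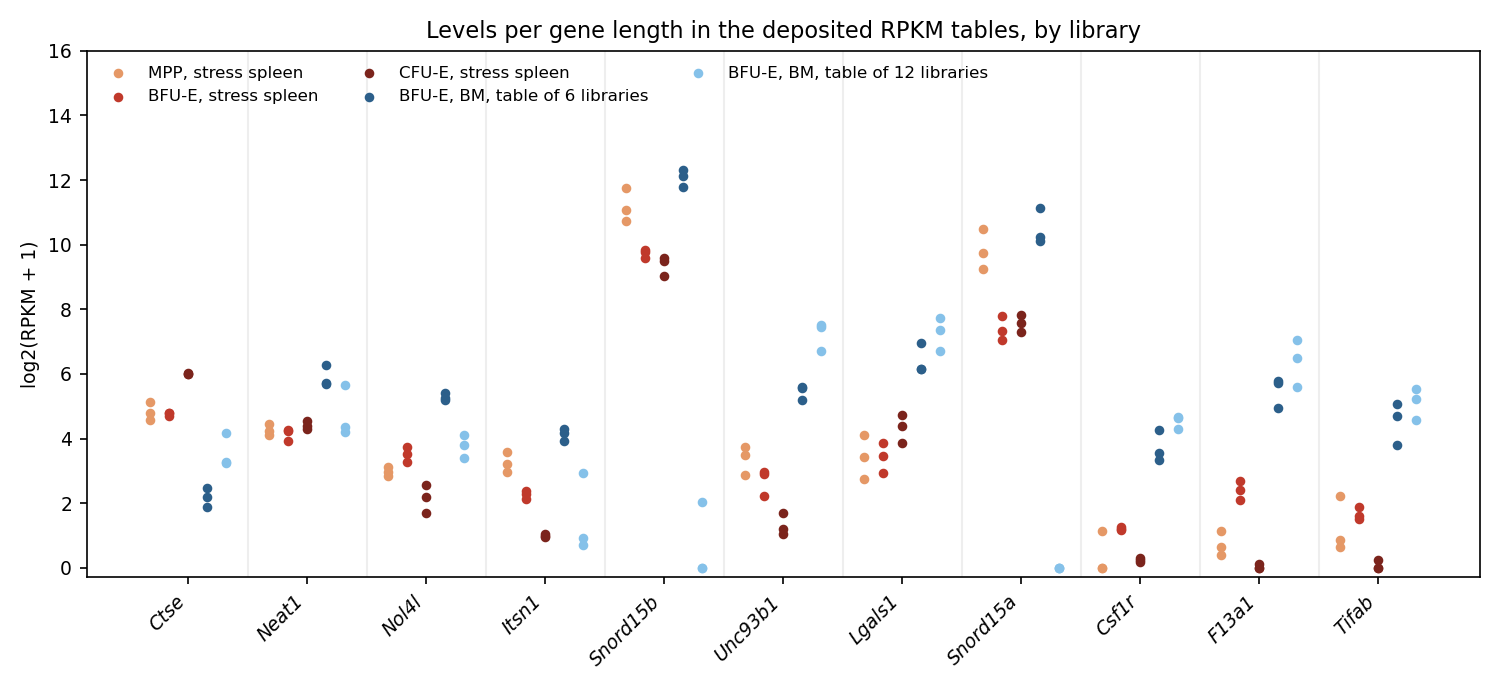
Log2(RPKM + 1) of the 11 called genes described in the text, in each library of the 3 spleen populations and in both sets of BM BFU-E columns. Stress spleen BFU-E lies below both BM sets for Unc93b1, Lgals1, Csf1r, F13a1 and Tifab and above both for Ctse, and both snoRNA genes are at or near 0 in the BM columns of the table of 12 libraries.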

How the data were processed

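RNA-seq libraries were aligned and counted by the authors. Per the labels, libraries were made with a SMARTer Pico kit for stranded total RNA. The submitters' processing notes name HOMER 4.8, STAR 2.6.0b-1, DESeq2 and Bowtie2 2.3.4.2, and the builds mm10 and GRCm38. Per the file headers, the deposited counts are unnormalized exon counts per gene from HOMER, and the use of strand in counting is not given in the sources used here. The deposited count table holds genes averaging 50 counts or more in at least 1 group, so a gene at 0 in a group passed through the other. The deposited RPKM values were normalized by the authors for gene length and depth, per the file headers. Each accessible region carries the authors' deposited score, and repeated intervals were counted once.

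Counts were tested with edgeR 4.0.16 (quasi-likelihood, TMM, R 4.3.3), with Benjamini-Hochberg adjustment over 10702 genes and a threshold of 0.05. Standard errors (SE) are the log2 fold change over the square root of F in that fit. The CPM values use TMM library sizes. Levels that are 0 in every library of a group were bounded by 3 counts over the group. Genes named are those called, of which 1 is not reported here, the next 15 in each direction by p, and members of lists. Members and lists were chosen with earlier results of these data known, and the snoRNA group after its values were seen. Alternatives were DESeq2 1.42.0 (its default parametric dispersion trend did not converge on these counts, so a local trend was set, a choice made after seeing the data), voom in limma 3.58.1, other scaling and filters, leaving out each library, a replicate block and, chosen after seeing the data, limma on log2(RPKM + 1) and DESeq2 with a mean trend. Simulated counts were used to test the fits. Promoters and gene models are from RefSeq (GRCm38.p6), and 65 of 82 genes described with values had a promoter entry. These floors cover counting error only.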

Additional observations from a re-analysis of the deposited data

How the results depend on the processing

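The 12 calls held with the DESeq2 size factors in edgeR and with a robust prior (12 genes each), and all 12 were among the 15 called when genes needed a mean of 200 or more counts. DESeq2 called 685 genes with a local dispersion trend and 579 with a mean trend, the second chosen after seeing the data, because its parametric trend did not converge. Voom called 187 with a weight per group and 181 with a weight per library. With limma on log2(RPKM + 1), chosen after seeing the data, 25 genes were called in the table of 6 libraries. Against the BM columns of the table of 12 libraries 6886 were called, 1393 higher and 5493 lower. The median log2 fold change of all genes was 0.15 in the table of 6 libraries and -0.95 against those other BM columns. Leaving out 1 library gave 0 to 27 calls and 2829 to 4715 genes without overlap. Groups overlap less easily with fewer libraries, so part of the rise from 2341 with all libraries was fixed by the design. Voom and the block fit moved the median of all genes to between 0.18 and 0.21, so their changes are read relative to that shift.

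Replicate numbers did not pair the libraries (correlations of deviations -0.022, -0.0337 and -0.0333). With the number as a replicate block, 3 genes were called, all among the 12.

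Among the 82 genes described with values, the 151 recomputed values of the 11 called had 0 with another direction, and 59 missed the threshold. Kit, Klf1, Cd9 and Gata1, none of them called, changed sign. Kit was -0.00396 with DESeq2 factors, -0.00393 with DESeq2, -0.00446 with a mean of 200 counts and -0.0109 without non-coding genes, and Klf1 was -0.025, -0.024, -0.0243 and -0.0276 in that order. Leaving out 1 library moved Kit between -0.0557 and 0.134, Klf1 between -0.285 and 0.684, Cd9 between -0.269 and 0.0245 and Gata1 between -0.106 (without BM 3) and 1.06. Prss34 ranged from -10.96 to 4.25 and Mcpt8 from -6.29 to 0.835, both highest without BM 2. Of 39 list medians, 16 changed sign under at least 1 alternative.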
